A study of Mus musculus with 29 samples.

Results

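Microglial IRF8 sites that were listed in adult mice and in no earlier library were described: 4481 of the 16935 adult IRF8 regions (26.5%). IRF8 had been mapped by CUT&RUN, in which an antibody tethers micrococcal nuclease to chromatin and the released DNA is sequenced. An adult region was a merged stretch with a peak in at least 2 of the 3 adult libraries. Members were chosen by the presence or absence of listed peaks: a region was adult-only when no peak of the 4 postnatal day 9 (P9) or 3 postnatal day 14 (P14) libraries overlapped it by 1 bp or more. All mice were female. IRF8 libraries came from mice of the IRF8-EGFP strain, with an antibody against GFP: sorted microglia at P9, P14 and adult age, and peritoneal macrophages (3 libraries). The titles of the latter name peritoneal macrophages while their source field names sorted microglia; the titles were followed, and every macrophage value rests on them. PU.1, H3K27ac and H3K4me1 were mapped in adult microglia of WT mice and of IRF8KO mice, 2 libraries for each target and genotype. The labels give an age of 3 months, applied here to the adult groups. Cells for PU.1 and IRF8 were fixed before sorting, per the labels, and the number of mice behind each library is not stated in the labels. The adult IgG control came from WT mice, and those of P9, P14 and macrophages from IRF8-EGFP mice.

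IRF8 is an interferon regulatory factor of the myeloid lineage. It binds DNA weakly by itself and is known to bind composite ETS-IRF elements together with PU.1, the ETS factor that marks most macrophage enhancers. H3K27ac marks active promoters and enhancers, and H3K4me1 marks enhancers whether or not they are active. Microglia need IRF8 for their normal form and gene expression.

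The sequences below are the central 201 bases of members on which the results turn, on the plus strand of mm10, read from the reference genome of that build. Capitals mark matches, on either strand, to the composite motif (GGAA, 2 free bases, GAAA), to the interferon-response-like motif (GAAA, 2 free bases, GAAA) or to the ETS core GGAAGT. The first pair, in introns of Dgkd (chr1:87912555-87912755) and Hmcn2 (chr2:31325401-31325601), is shown because each holds a composite match and a PU.1 peak in both WT libraries and in no KO library. In Hmcn2 the composite match also contains an ETS core. These are single examples and not the rule among members. A composite match lay in 4.12% of members with WT PU.1 consensus (both libraries). It lay in 6.62% of members with no PU.1 peak in either genotype.
Dgkd: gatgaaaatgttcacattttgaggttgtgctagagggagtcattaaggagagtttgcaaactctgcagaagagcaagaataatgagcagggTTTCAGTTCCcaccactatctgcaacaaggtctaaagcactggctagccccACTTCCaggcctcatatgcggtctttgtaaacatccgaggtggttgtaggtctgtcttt
Hmcn2: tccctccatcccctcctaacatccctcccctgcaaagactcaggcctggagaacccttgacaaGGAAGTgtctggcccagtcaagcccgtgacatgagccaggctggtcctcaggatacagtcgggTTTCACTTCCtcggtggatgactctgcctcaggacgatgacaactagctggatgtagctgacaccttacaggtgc
The second pair, in introns of Etv5 (chr16:22399214-22399414) and Enox2 (chrX:49116618-49116818), is shown because a PU.1 peak was listed in WT and also in KO microglia. Both hold at least 1 ETS core and no composite match.
Etv5: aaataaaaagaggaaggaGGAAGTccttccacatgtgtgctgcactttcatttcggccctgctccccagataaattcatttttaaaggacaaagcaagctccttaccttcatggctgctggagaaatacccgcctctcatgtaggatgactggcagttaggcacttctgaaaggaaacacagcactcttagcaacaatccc
Enox2: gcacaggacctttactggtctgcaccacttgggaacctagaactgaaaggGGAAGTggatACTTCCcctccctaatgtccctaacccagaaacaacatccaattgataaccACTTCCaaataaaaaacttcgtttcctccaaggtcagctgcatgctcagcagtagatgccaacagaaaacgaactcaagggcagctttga
Another member, in an intron of Ankrd13a (chr5:114780967-114781167), is shown because it holds an ETS core and no composite match while its PU.1 peak was listed in both WT libraries and in no KO library, as in the first pair.
Ankrd13a: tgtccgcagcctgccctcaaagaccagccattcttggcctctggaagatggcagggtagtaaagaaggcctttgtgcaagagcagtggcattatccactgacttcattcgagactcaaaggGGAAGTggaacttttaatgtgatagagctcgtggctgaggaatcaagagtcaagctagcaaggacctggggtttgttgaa
The last pair is the member of highest rank with peaks in all 3 adult libraries, assigned to Itga8 (chr2:12060113-12060313), and the strongest member assigned to Sall1 (chr8:88914554-88914754). The Itga8 window holds a lone ETS core, and the Sall1 window holds none of the 3 letter patterns.
Itga8: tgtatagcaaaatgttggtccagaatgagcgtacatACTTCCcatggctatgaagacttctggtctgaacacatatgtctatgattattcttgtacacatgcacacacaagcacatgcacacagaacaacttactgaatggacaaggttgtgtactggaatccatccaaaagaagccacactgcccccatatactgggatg
Sall1: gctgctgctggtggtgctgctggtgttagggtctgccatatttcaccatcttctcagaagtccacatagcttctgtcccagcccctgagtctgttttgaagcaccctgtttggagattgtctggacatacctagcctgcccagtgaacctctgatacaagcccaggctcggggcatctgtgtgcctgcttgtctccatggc

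The adult-only regions lay mostly in the lower part of the adult lists, and the choice rested largely on a single P14 library. These values describe the rule and carry no test. Ranking used the pileup, the authors' fragment coverage at a peak, as a percentile within each adult list, averaged over the libraries with a peak. The median percentile was 41.0 for members and 66.8 for the other 12454 adult regions. From the weakest to the strongest decile of adult regions, the adult-only share went from 65.1% to 0.472%. Members were also narrower, with a median of 802 bp against 1216 bp. At the edges of the rule, the 3491 members with peaks in exactly 2 adult libraries had a median percentile of 38.8 and the 990 with peaks in all 3 had 47.9. The 4769 adult regions with a peak in exactly 1 earlier library had 52.5, and the 21987 regions with 1 adult library and no earlier peak had 29.0.

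The earlier lists were very unequal. The P9 lists held 1168 to 2068 regions and overlapped 6.17% to 11.3% of the adult regions. The P14 lists of replicates 1 and 3 held 7959 and 7931 regions and overlapped 38.1% and 34.1%, while replicate 2 held 19243 and overlapped 68.4%. P14 replicate 2 was the sole earlier library at 4021 adult regions, and without it the adult-only regions would number 8502. Of the members, 308 (6.87%) had an earlier peak within 1 kb. Each age had its own IgG control in the peak calls, so age and control cannot be told apart, and adult-only means listed in adults and unlisted earlier, not absent earlier.

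The adult libraries also entered unequally. They held 7.51, 24.7 and 7.25 M fragments for replicates 1 to 3, where M is mega, and the largest, replicate 2, had a peak in 97.3% of members. Peaks in replicates 1 and 2 alone made up 50.7% of members, replicates 2 and 3 alone 24.5%, replicates 1 and 3 alone 2.72%, and all 3 libraries 22.1%. The last share was 61.2% among the other adult regions. Replicates 1 and 2 are batch 1 in the labels and replicate 3 is batch 2. Members had peaks in both batches at 2209 regions (49.3%), against 68.8% of the other regions. In replicates 1, 2 and 3 the members' pileups had medians of 10, 21 and 9 fragments on the authors' scale. The corresponding medians of the other regions were 16, 35 and 11.

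To compare like with like, adult-only regions were set beside other adult regions of matched pileup rank. The share among the others was taken in each of 10 strata of pileup percentile and averaged with the members' numbers as weights. The strata matched closely except the topmost, where the median percentile was 72.0 for members and 81.4 for the others. With 50 strata, added after seeing the data, the WT PU.1 difference given below moved from −16.3 to −15.2 percentage points and that of macrophage IRF8 from −10.5 to −9.67. Any other region had to be listed in at least 1 further IRF8 library and a member in none, and a higher chance of being listed anywhere cannot be told apart from this choice.

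Adult-only regions kept the usual positions of IRF8 regions. Of the members, 1517 (33.9%, 95% Wilson interval 32.5 to 35.3%) lay with their centre within 1 kb of an annotated transcription start, against 33.5% of all adult regions. In other regions of matched rank the share was 38.8%. Introns held 39.1% of members and 35.1% of matched others, exons 4.2% and 3.53%, and intergenic sequence 22.9% and 22.5%. The lower share near starts turned to +1.26 points when regions were matched on width and to +0.77 points without adult replicate 2, so its direction depends on the matching and on that library. Members did not stand far from earlier sites: 71.2% had an other adult region within 50 kb, against 75.2% of matched others.

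Composite and ETS letters were more frequent at the centres of members than 1 kb away, though most members held neither. The composite motif lay in the central 201 bases of 254 members (5.67%, interval 5.03 to 6.38%), against 6.28% of all adult regions and 5.66% of matched others. Windows of the same size 1 kb away from the members held it in 1.76% of cases. The difference from matched others was −2.15 points when regions were matched on width and −2.97 points over whole regions, so it depends on the matching and the window. The ETS core was found in 25.7% of members, 27.3% of matched others and 11.3% of the windows 1 kb away, and some of these lie inside a composite match. The interferon-response-like motif was found in 4.49%, 3.70% and 2.90%, and in 4.2% of all adult regions. The AP-1 motif TGANTCA, bound by FOS and JUN proteins, was found in 5.8% of members, close to the 5.51% of windows 1 kb away. GGGCGG, the GC-box letters of SP and KLF factors, was found in 14.2% of members and 17.3% of matched others. AGGGGGC, the core letters of the insulator factor CTCF, was found in 3.10% and 4.84%. Motif shares have no replicate, and no test was made on them. A match of letters is a description and not a measured site.

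PU.1 was listed less often at adult-only regions than at other adult regions of matched rank. The WT PU.1 consensus (both libraries) overlapped 291 members (6.49%, interval 5.81 to 7.25%), against 27% of all adult regions and 18.5% of matched others. By library, WT replicates 1 and 2 overlapped 19.2% and 11.9% of members and 37.3% and 26.4% of matched others. The members' share was lower in each of the 2 libraries, by a mean difference of −16.3 ± 2.50 percentage points (SD, n = 2). An exact permutation test that flips the sign of each library's difference gave p = 0.5, the smallest 2 libraries allow, so this exact test cannot pass 0.05 here. The difference was −24.4 points without adult replicate 2, −23.4 matched on width and −32.6 without matching. In KO microglia the same order held, with 14.3% and 12.5% of members against 27.02% and 26.2% of matched others, a difference of −13.2 ± 0.720 points (SD, n = 2). Distal members, over 1 kb from any start, had WT PU.1 consensus in 7.42% of cases against 21.3% of matched others, and members near a start in 4.68% against 13.8%. In every stratum of rank the members' share lay below that of the others. It ran from 2.28% against 10.8% in the lowest stratum to 11.4% against 48.9% in the topmost, which the 4 panels of shares by stratum show beside H3K27ac, macrophage IRF8 and the composite motif.

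**Figure D1:**
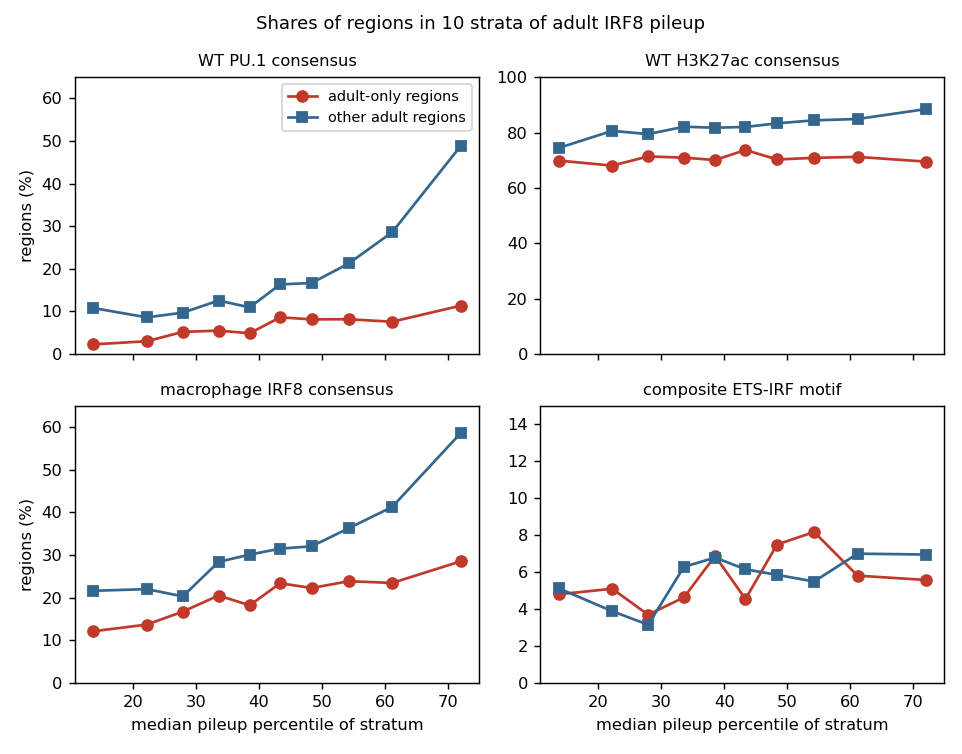
Share of adult IRF8 regions (y axis, %) that overlap a WT PU.1, WT H3K27ac or macrophage IRF8 consensus region or hold the composite motif, in 10 strata. Both sets are drawn at the adult-only regions' median pileup percentile in each stratum (x axis). In the topmost stratum this is 72.0, while the others' own median was 81.4. Circles are the 4481 adult-only regions and squares the 12454 other adult regions; PU.1 and macrophage IRF8 rise with rank in both, from a lower level in adult-only regions, while the motif shares of the 2 sets cross.

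Most adult-only regions carried the marks of active regulatory chromatin. H3K27ac in WT microglia covered 3163 members by consensus (70.6%, interval 69.2 to 71.9%), against 81.8% of all adult regions and 82.2% of matched others. H3K4me1 covered 3852 members (86.0%), against 91.3% of all adult regions and 91.4% of matched others. Both marks together lay at 66.0% of members and 78.4% of matched others. The 2 WT H3K27ac libraries overlapped 81.8% and 74.4% of members and 90.8% and 85.1% of matched others, a mean difference of −9.83 ± 1.22 points (SD, n = 2). For H3K4me1 the WT libraries gave 90.6% and 86.9% against 95.1% and 90.8%, a difference of −4.17 ± 0.338 points. Each of these exact permutation tests gave p = 0.5, the smallest possible with n = 2. H3K4me1 consensus with no H3K27ac peak in either WT library lay at 6.58% of members and 3.50% of matched others. No WT library of either mark listed a peak at 143 members (3.19%), against 1.01% of matched others. H3K27ac, H3K4me1 and PU.1 replicate 1 were called against the same IgG control library as adult IRF8, so these lists share their control.

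**Figure D2:**
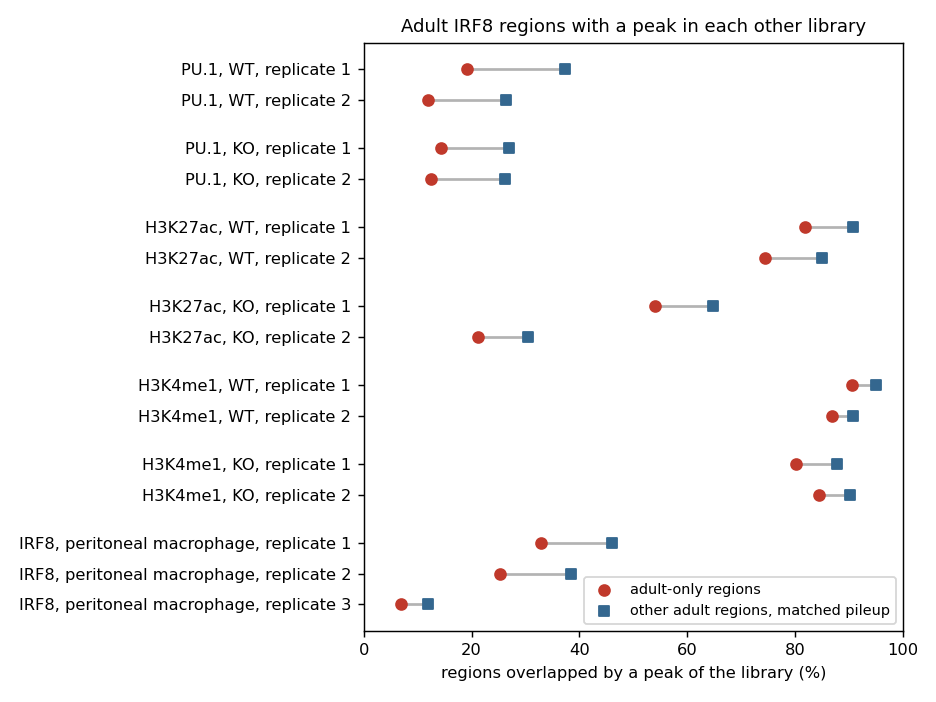
Share of adult IRF8 regions overlapped by a peak of each library (x axis, %), with 1 row per library. Red circles are adult-only regions and blue squares the other adult regions weighted to the same pileup strata; the circle lies left of the square in all 15 libraries.

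IRF8 in peritoneal macrophages was less often listed at adult-only regions than at matched others. The macrophage consensus (at least 2 of 3 libraries) overlapped 909 members (20.3%, interval 19.1 to 21.5%), against 39.5% of all adult regions and 32.2% of matched others. No macrophage library listed a peak at 2630 members (58.7%), against 39.9% of all adult regions and 44.4% of matched others. By library, macrophage replicates 1, 2 and 3 overlapped 32.8%, 25.3% and 6.83% of members and 46.1%, 38.4% and 11.8% of matched others. All 3 differences were negative, with a mean of −10.5 ± 4.71 points (SD, n = 3; exact permutation test by sign flips, two-sided, p = 0.25, the smallest 3 libraries allow). Within batch 1 the mean was −13.2 points over 2 libraries, and the single library of batch 2 gave −5.01 points. Batch 2 alone was thinner in both sets, with 9788 regions in its list against 23163 and 16994. Members with a macrophage consensus lay near a start in 41.5% of cases, and members with no macrophage peak in 25.9%. The other adult regions showed the same split, at 38.1% and 21.6%.

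Adult regions were also graded by the number of earlier libraries that listed them. Beside the 4769 adult regions with a peak in exactly 1 earlier library, the closest class outside the rule, members still had lower shares at matched rank. WT PU.1 consensus lay at 6.49% of members, at 12.6% of regions with 1 earlier library, at 19.3% with 2 and at 33.5% with 3. Macrophage IRF8 consensus lay at 20.3%, 28.2%, 33.6% and 32.9% in the same order, and WT H3K27ac consensus at 70.6%, 80.0%, 83.3% and 89.7%. The share near a start moved without order, at 33.9%, 38.7%, 41.3% and 33.9%. Against the class with 1 earlier library alone, the mean library difference was −9.79 points for WT PU.1, −8.06 for H3K27ac, −3.24 for H3K4me1 and −7.17 for macrophage IRF8. This comparison was added after seeing the data. The values by number of earlier libraries are plotted with and without matching.

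**Figure D3:**
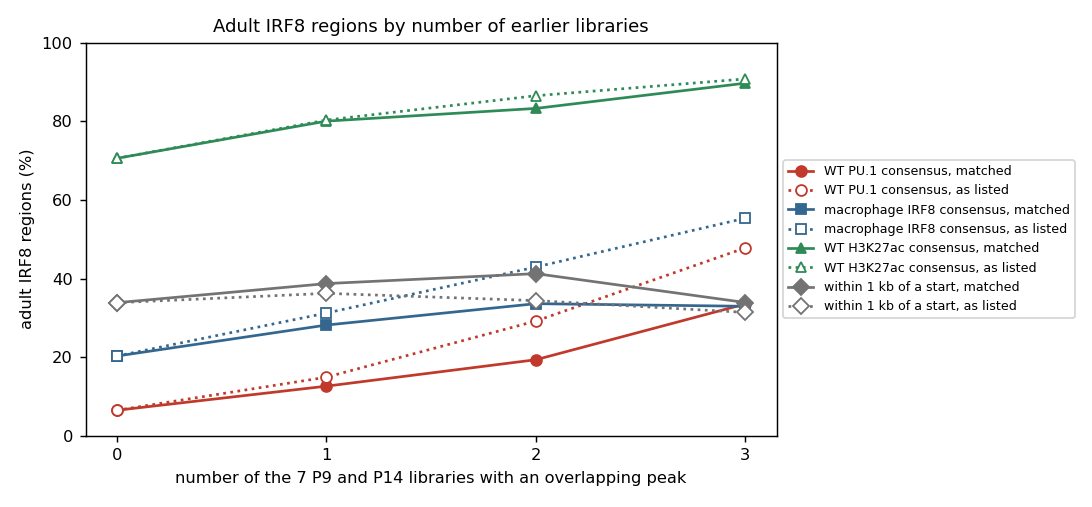
Share of adult IRF8 regions (y axis, %) with each feature by the number of P9 and P14 libraries with an overlapping peak (x axis, 0 being the adult-only regions). Filled symbols are weighted to the members' pileup strata and open symbols are as listed; the PU.1 and H3K27ac shares rise from 0 to 3 libraries in both.

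The genotype comparison asked whether PU.1 and the histone marks at these regions were listed without IRF8. Of the 3 targets, H3K27ac had the largest KO minus WT difference. KO replicates 1 and 2 overlapped 54.0% and 21.2% of members, and WT replicates 81.8% and 74.4%, so the genotypes did not overlap. The mean KO minus WT difference was −40.5 points (exact permutation test of 2 against 2 libraries, two-sided, p = 0.333, the smallest possible). Matched others gave −40.4 points, and the members' difference from them was −0.12 points. KO replicate 2 had 8.57 M fragments, the fewest of the mark libraries, and without it the members' difference was −24.1 points. H3K4me1 gave 80.2% and 84.5% in KO against 90.6% and 86.9% in WT, a difference of −6.39 points (exact permutation p = 0.333), and −3.96 points in matched others. With −log10 p of at least 10 required in every list, the members' H3K4me1 difference turned to +0.82 points, but the mark was then listed at only 3.76% of members in WT and 4.58% in KO. PU.1 gave 14.3% and 12.5% in KO against 19.2% and 11.9% in WT, so the genotypes overlapped (−2.16 points, exact permutation p = 1.0). Matched others gave −5.23 points for PU.1, and the members' difference from them was +3.07 points (exact permutation p = 0.333, the smallest possible). The WT mean was 15.6% in members and 31.9% in matched others, and the KO mean 13.4% and 26.6%. With such unlike WT shares, a difference in points does not show that PU.1 was kept more at members. Without WT PU.1 replicate 1 the members' own KO minus WT difference was +1.48 points, and with adult lists shortened to the median P14 length it was −7.66 points.

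By single mark regions, the shares lost in KO at adult-only sites lay close to those at matched ones for PU.1 and H3K27ac, with no test made. A mark region was counted as lost when it was a WT consensus region of a mark with no peak in either KO library. Of 2745 WT H3K27ac regions that touched members and no other adult region, 691 were lost (25.2%, interval 23.6 to 26.8%). The share was 34% over all H3K27ac regions and 25.6% at other adult regions of matched mark strength. Of the 291 PU.1 regions at members, 90 were lost (30.9%, interval 25.9 to 36.5%), against 25.1% of all PU.1 regions and 29.7% at matched others. H3K4me1 was lost at 123 of 2599 regions (4.73%), against 13% of all such regions and 2.58% at matched others. In the other direction, 64 of 285 KO PU.1 regions at members (22.5%, interval 18 to 27.6%) had no peak in either WT library, against 16.5% of all KO PU.1 regions and 9.91% at matched others. Of the members with WT H3K27ac consensus, 67.1% had a peak in KO replicate 1 and 27.9% in the shallower replicate 2, and among matched others 72.8% and 35.1%. For PU.1, 57.04% and 52.2% of the members with WT consensus had a peak in KO replicates 1 and 2, and 65.4% and 62.4% among matched others.

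Counted instead over the IRF8 regions, a mark was lost at a member when a WT consensus region overlapped it and no KO peak overlapped the member itself. KO PU.1 consensus lay at 285 members (6.36%, against 20.8% of all adult regions), KO H3K27ac consensus at 883 (19.7%, against 28.3%) and KO H3K4me1 consensus at 3626 (80.9%, against 86.3%). PU.1 was lost at 89 members (1.99%, against 5.96% of all adult regions and 4.35% of matched others). It was present in KO consensus without any WT peak at 64 (1.43%, against 1.64% of all adult regions). These shares count regions with and without the mark in WT, so a low share need not mean less loss. Among regions with WT PU.1 consensus, 89 of 291 members lost it, against 1010 of 4580 adult regions. No PU.1 library of either genotype listed a peak at 2975 members (66.4%), against 40.4% of all adult regions and 44.9% of matched others. H3K27ac was lost at 929 members (20.7%, against 19.6% of all adult regions and 19.1% of matched others). Among regions with WT H3K27ac consensus, that was 929 of 3163 members, against 3317 of 13850 adult regions. The mark was KO only at 7 members (0.156%, against 0.0472% of all adult regions) and unlisted in all 4 libraries at 477 (10.6%, against 5.69%). H3K4me1 was lost at 240 members (5.36%, against 4.1%), was KO only at 97 (2.16%, against 1.14%) and was unlisted throughout at 81 (1.81%, against 1.01%). H3K4me1 KO only made up 44 of 2429 KO regions at members (1.81%, against 23.8% of all such regions and 0.773% at matched others), and H3K27ac KO only 7 of 809 (0.865%, against 10.9% and 0.0507%).

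Single regions show these classes. The member of highest rank with peaks in all 3 adult libraries lay between genes, beyond the 3′ end of Itga8, which encodes integrin alpha 8, and 72339 bp from the nearest annotated transcript start of that gene, an internal one (chromosome 2, 12059354 to 12061073). Its pileups were 47, 107 and 22 in adult replicates 1 to 3, with the authors' fold enrichments of 21.6, 21.3 and 11.9. No macrophage or PU.1 library listed it, and H3K27ac was listed in WT replicate 1 only, at 4.43-fold. The intronic member of Dgkd, a diacylglycerol kinase gene (chromosome 1, 87912172 to 87913139), had adult folds of 10.4, 15.3 and 6.74. PU.1 stood at 13.1 and 7.59-fold in the WT libraries and H3K27ac at 6.71 and 12.4-fold, and neither was listed in KO. H3K4me1 was listed there in both genotypes, at 3.85 and 3.13-fold in WT and 3.31 and 2.76-fold in KO. The intronic member of Hmcn2, a hemicentin gene of the extracellular matrix, showed the same pattern. Its adult folds were 11.3, 13.9 and 7.04, WT PU.1 10.6 and 5.17 and WT H3K27ac 9.56 and 9.42, with no peak of either in KO. These 2 members held the composite matches printed above, but the Ankrd13a member, with an ETS core alone, also had PU.1 in WT and not in KO.

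Other members kept PU.1 in KO. In an intron of Etv5, which encodes an ETS factor (chromosome 16, 22398750 to 22399878), PU.1 stood at 4.82 and 5.17-fold in WT and 4.55 and 10.7-fold in KO. In an intron of Enox2 (chromosome X, 49116375 to 49117061) WT PU.1 stood at 9.58 and 4.83-fold, and KO replicate 2 alone listed it, at 4.97-fold. The member in an intron of Ankrd13a, also among the 5 strongest with WT PU.1 consensus, had 7.06 and 4.42-fold in WT and no peak in KO or in any H3K27ac library. Of the 10 strongest members in all 3 adult libraries, the rest were assigned to Jarid2 and Kdm6a, which encode regulators of H3K27 methylation, and to Tmprss4, Arf2, 1700125H20Rik, Apip, App and Sumo3. The App member, 104329 bp upstream of the amyloid precursor gene, had adult folds of 11.4, 10.5 and 11.1 and was listed by no H3K27ac, PU.1 or macrophage library. The Arf2 member was listed in all 4 H3K27ac libraries, at 5.72 to 6.65-fold, and in macrophage replicates 1 and 2 at 7.06 and 4.54-fold. The Jarid2 member had high pileups of 42, 50 and 32 with folds of only 4.15, 1.88 and 5.48, so rank by pileup and enrichment over control did not go together there.

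Genes were assigned by the nearest transcript start of a protein-coding gene, internal starts included. For single genes, H3K27ac is called lost when the WT mark region over a member had no KO peak anywhere, which held at 716 of all 4481 members. Members fell at 3335 protein-coding genes, 15.2% of the 21924 annotated and 42.3% of the 7878 with any adult region. At 1949 of these genes an earlier-bound region lay beside the member, and at 1386 (17.6% of genes with an adult region) every adult region was a member. The genes with the most members were Adgrl2 (9 of 16 adult regions), Bach2 (8 of 25) and Tmsb4x (7 of 14), followed by 9 genes with 6 each. Of those 9, the 5 whose best member ranked highest were Sall1, Nrp2, Rassf3, Basp1 and Rreb1. Adgrl2 encodes an adhesion receptor of the latrophilin family. Its 9 members had percentiles of 29.2 to 75.1, 6 carried WT H3K27ac consensus and 1 of these was lost in KO. Bach2 encodes a transcriptional repressor of the lymphoid and myeloid lineages. Of its 8 members 7 carried H3K27ac and 4 were lost in KO, and of its 17 other regions 16 carried the mark and 3 were lost. At Rassf3 4 of 6 members lay in the macrophage consensus, and its H3K27ac was lost at 0 of 6. At Nrp2, a receptor for semaphorins, all 6 members carried H3K27ac and 3 were lost, against 1 of the 6 other regions. Elsewhere the losses among regions with the mark were fewer. At Tmsb4x 1 of 5 members lost it against 2 of 7 others, and at Adgrl2 1 of 6 against 1 of 7. At Basp1 the counts were 1 of 6 against 1 of 5, and at Rreb1 1 of 4 against 2 of 13.

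Sall1, a zinc-finger gene that among brain cells marks microglia, had 6 members among its 18 adult regions. All 6 carried WT H3K27ac consensus and all 6 lost it in KO, and none lay in the macrophage consensus or the PU.1 consensus. Of the 12 other regions of Sall1, 11 carried H3K27ac, 9 lost it in KO and 4 had PU.1 consensus. The strongest Sall1 member, 129508 bp downstream of the start (chromosome 8, 88914074 to 88915235), had pileups of 17 and 49 in adult replicates 1 and 2 and folds of 9.34 and 12.2. Its H3K27ac stood at 4.08 and 2.48-fold in WT, its H3K4me1 at 3.48 and 3.41-fold, and no KO library of either mark listed it. A pair of members lay in the gene, 3957 and 6590 bp from the start, with WT H3K27ac of 5.24 and 8.41-fold and of 4.93 and 8.41-fold. The remaining 3 lay 236686, 294719 and 298727 bp upstream. None of the 6 had peaks in all 3 adult libraries, and 5 of the 6 rested on replicates 1 and 2 of batch 1. The loss covered the neighbourhood. Within 350 kb of the Sall1 start, WT replicates listed 85 and 81 H3K27ac regions and KO replicates 13 and 3. P14 libraries listed 4, 18 and 5 IRF8 regions in that span and P9 libraries none.

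**Figure D4:**
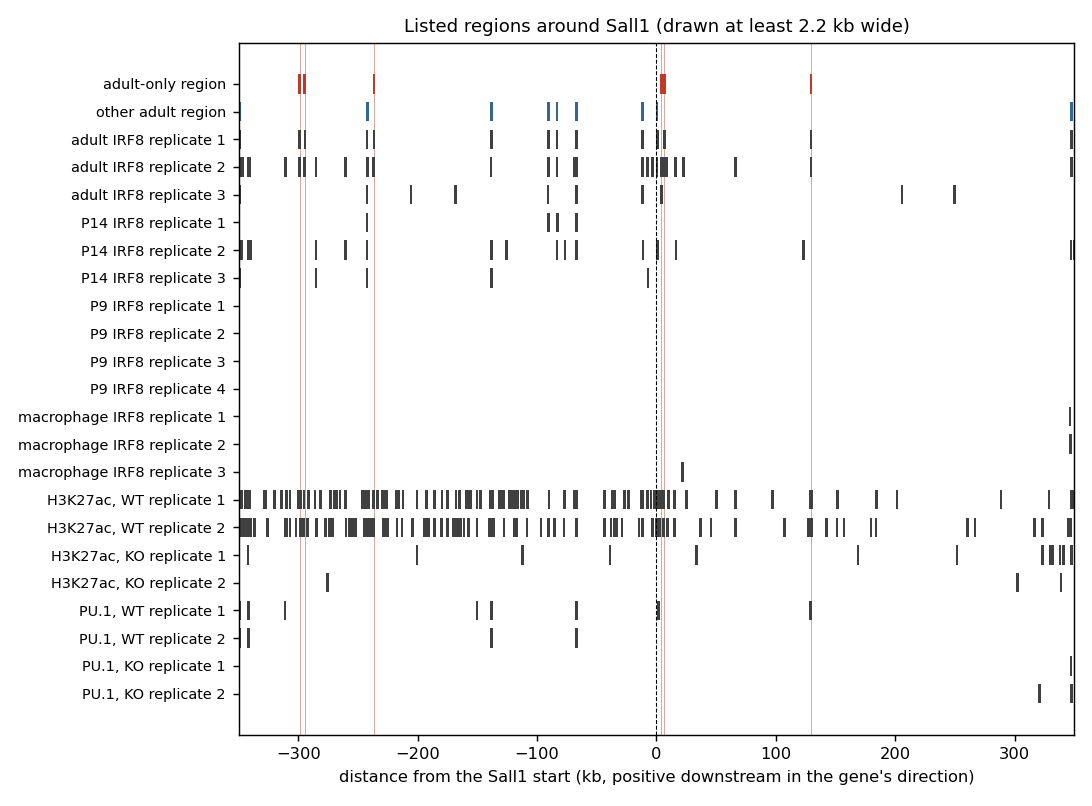
Listed regions around Sall1 by distance from its start (x axis, kb), with 1 row per library and the adult-only and other adult regions on top. Thin vertical lines run through the 6 adult-only regions; the WT H3K27ac rows are dense, and the KO H3K27ac rows hold no region at any of the 6.

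Gene lists were described by counts. The homeostatic microglia list of 30 genes held 34 members among 149 adult regions (22.8%), against 26.5% over all genes. At 19 of the 30 genes there was a member, and none of the 30 was reached by members alone. Of these 34 members 26 carried WT H3K27ac, 8 lost it in KO, 6 of them at Sall1, none had PU.1 consensus and 3 lay in the macrophage consensus. Over all 4481 members the corresponding counts were 3163, 716, 291 and 909, and with 34 regions nothing particular to the list is read from these counts. Their median percentile was 32.3, against 41.0 over all members. Tgfbr2, a receptor for TGF-beta, held 4 members of 18 regions, all with H3K27ac. Mef2c, a MADS-box factor, held 3 of 11, all inside the gene, under H3K27ac of 17.3-fold in WT replicate 1. Irf8 itself held 3 of 7. The strongest, 16479 bp upstream of its start, had adult folds of 7.78 and 9.04, and H3K27ac of 5.55 and 6.22-fold in WT and 5.37 and 5.27-fold in KO. Spi1, which encodes PU.1, held 1 of 3.

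The list of interferon and IRF pathway genes held 15 members among 78 adult regions (19.2%), at 11 genes. Ifnar2, a subunit of the type I interferon receptor, held 3 of 5. Its strongest member, in an intron, had adult folds of 8.80 and 7.04 in replicates 2 and 3 and H3K27ac of 13.9-fold in WT replicate 1 only. Members also lay at Irf5, Irf2, Ifngr2, Tlr7 and Ifit3, among others. The antigen presentation list held 3 of 24 regions, at Cd80 (2 of 2) and at Ciita. Inflammatory signalling genes held 14 of 61. Among them Il6 had 4 members of 10 regions, of which 2 carried H3K27ac and both lost it in KO, and Il1b had a member in all 3 adult libraries with H3K27ac in all 4 libraries.

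Lysosomal and phagocytic genes held 14 members of 59 regions (23.7%), among them Lamp2 (2 of 2), Lamp1, Npc2, Lgmn and Itgb2. Genes of disease-associated microglia held 11 of 32 (34.4%), with Cd9 (3 of 8) and Spp1, whose sole adult region was a member and lost its H3K27ac in KO. Housekeeping genes held 6 of 20 (30%). In the list of peritoneal macrophage markers 8 of 28 regions (28.6%) were members, at 8 genes, and 5 of the 8 lay in the macrophage consensus, against 20.3% of all members and 39.5% of all adult regions. With 8 regions nothing particular to the list is read from this count. At the start of Timd4, a receptor of resident peritoneal macrophages, macrophage folds were 17.2, 16.9 and 7.09 and adult microglia folds in replicates 1 and 2 6.74 and 6.11, with no H3K27ac in any microglial library.

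**Figure D5:**
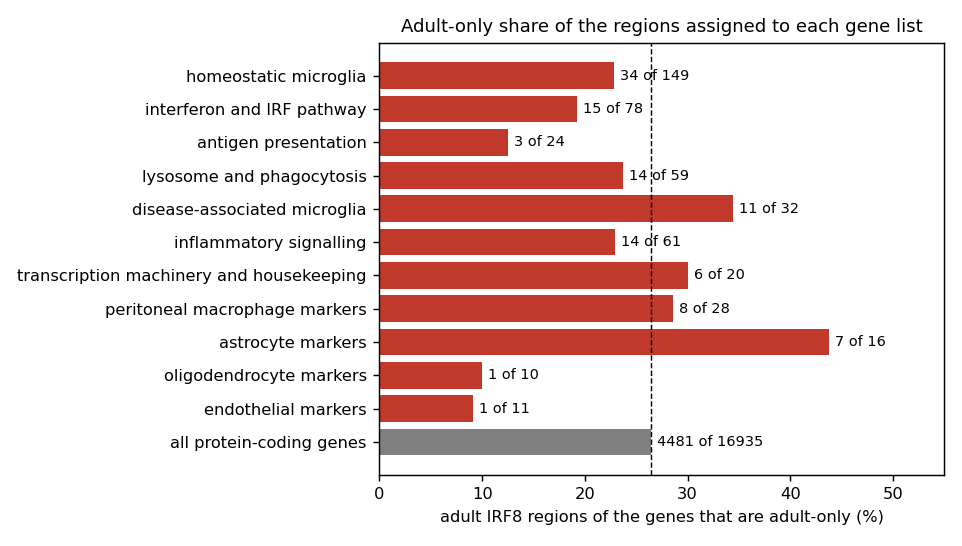
Share of the adult IRF8 regions assigned to each gene list that are adult-only (x axis, %), with members and regions printed beside each bar, for lists with at least 10 adult regions. The dashed line marks the 26.5% over all protein-coding genes; lists of microglial function lie from 12.5% to 34.4%, the higher and lower bars resting on few regions.

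The sorted cells were checked by WT H3K27ac consensus within 2 kb of a start. It lay at 27 of 30 homeostatic microglia genes, 0 of 10 neuron markers, 1 of 9 lymphocyte markers, 3 of 8 astrocyte markers (Slc1a2, Slc1a3 and Gja1), 3 of 8 oligodendrocyte markers (Mbp, Mog and Cnp), 4 of 8 endothelial markers (Pecam1, Flt1, Cdh5 and Vwf) and 5 of 16 peritoneal macrophage markers, against 40.4% of all protein-coding genes. Members lay at 7 of 16 adult regions of astrocyte markers, 4 of them at Slc1a3, 1 of 10 of oligodendrocyte, 1 of 11 of endothelial, 1 of 3 of neuron and 0 of 4 of lymphocyte markers. The part of other brain cells in these results was not tested. In bulk libraries more bound cells and more binding per cell cannot be told apart.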

How the data were processed

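The data are 25 peak lists from CUT&RUN libraries, 1 per library, in mm10, with IgG libraries used only through the calls. The submitters' processing notes name bcl2fastq, Trim Galore, Bowtie2, deepTools and MACS2, with no order. Per the file headers the authors called peaks for each library with MACS (2.2.7.1 for IRF8 and PU.1, 2.2.6 for histone marks) against an IgG control. The headers name 5 controls: 1 each for P9, P14 and macrophages, a further one for PU.1 replicate 2 of both genotypes, and another for all remaining adult libraries. The labels list 4 IgG samples. The threshold was a q-value of 0.01, except 0.05 for PU.1 replicate 2, and H3K4me1 was called as broad regions with a p-value of 0.01 and a minimum length of 1000 bp. The deposited values used are pileup (a coverage signal), fold enrichment (a ratio over control) and −log10 p, which here only order and describe peaks of the same list. Depths run from 7.25 to 24.7 M (mega) fragments, per the file headers. Wilson intervals at 95% cover counting over regions only, since no read counts per region are given.

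Each chromosome, start and end was used once. Groups came from the sample titles. Nothing in the labels says whether replicates are separate animals, so p-values refer to libraries only. The smallest possible p is reached whenever all library differences share a sign or the genotypes separate, whatever their spread. Overlap meant at least 1 bp. Consensus means that 2 or more libraries of a group had a peak in the merged stretch. Genes and starts came from GENCODE vM21 on GRCm38. Overlap, standardisation and motif scripts (Python 3.11.15, pandas 2.3.3, numpy 2.4.6, pysam 0.24.0) were tested on simulated data and against bedtools. Library differences were tested by exact permutation. WT and KO libraries share replicate numbers only, with no stated pairing. Alternatives covered left-out libraries, stricter calls, list length, matching and windows.

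The members, gene lists and rules were chosen with earlier results of these data known. Named regions are the 10 strongest members in all 3 adult libraries, the 8 genes with most members (ties by best rank), members at listed genes (up to 6 genes per list by rank, all for homeostatic genes) and the 5 strongest with WT PU.1 consensus. A few further listed genes were named after their values were seen. The Itga8 and Sall1 sequences were also chosen after their values were seen. Clec7a was not matched in the annotation.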

Additional observations from a re-analysis of the deposited data

How the results depend on the processing

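The lower listing of WT PU.1, WT H3K27ac, WT H3K4me1 and macrophage IRF8 at adult-only regions, and the lower H3K27ac in KO, kept their direction under all alternatives tried for each, which included left-out libraries, but not their size. WT PU.1 ran from −32.6 points (no matching) to −9.79 (others with 1 earlier library), macrophage IRF8 from −21.4 (no matching) to −7.17 (same others), WT H3K27ac from −14.7 (shortened adult lists) to −6.68 (matched on width), WT H3K4me1 from −8.26 (shortened adult lists) to −0.43 (−log10 p of at least 10 in every list), and H3K27ac in KO from −56.9 to −24.1 (without KO replicate 1 and 2). The number of members was 990 with a peak required in all 3 adult libraries, 2209 with a peak in both batches (added after seeing the data), 972 with −log10 p of at least 10 in the adult lists only, and 359 with adult lists at the length of the median P14 list. Leaving out single libraries gave 1125 (adult replicate 2) to 8502 (P14 replicate 2). The difference near starts (−4.99 points) was −0.44 with −log10 p of at least 10 in every list, −3.07 with both batches, −3.23 with pileup crossed with width (added after seeing the data), −3.38 within 500 bp, 0.54 without matching and 1.26 matched on width. Leaving out single libraries gave −6.84 to 0.77, the highest without adult replicate 2. The composite motif difference was 1.06 with the stricter adult lists, −1.69 with shortened lists, −2.15 matched on width, −0.83 without matching, −0.87 with pileup crossed with width and −2.97 over whole regions, and left-out libraries gave −1.26 to 0.12. KO minus WT for H3K4me1 turned to 0.82 with −log10 p of at least 10 in every list, where few regions of the mark remained, and was −11.4 with shortened adult lists. With single libraries left out it ran from −8.56 (KO replicate 2) to −4.23 (KO replicate 1). For PU.1 it ran from −5.81 to 1.48 with single libraries left out, the highest without WT replicate 1, and was −7.66 with shortened and −6.17 with stricter adult lists. The causes were not tested. With the replicate number as a replicate block, the paired differences stayed at −2.16 for PU.1, −40.5 for H3K27ac and −6.39 for H3K4me1, with exact permutation p of 1, 0.5 and 0.5, the smallest for 2 pairs being 0.5. The exact tests used cannot pass 0.05 with 2 or 3 libraries, and without read counts an unlisted region cannot be told apart from an undetected one.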

Other observations

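Adult-only regions took a larger share of the X chromosome: 108 of its adult regions were members and 167 were not (39.3% members, against 26.5% overall). X held 2.41% of members and 1.79% of other regions at matched rank. The share of listed regions on X was 1.61%, 2.10% and 2.89% in adult replicates 1 to 3, 1.34% to 1.73% in the P14 lists and 1.06% to 2.16% in the P9 lists. The adult libraries thus differed among themselves by more than members and matched others did. The cause was not tested.

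H3K27ac present in KO only made up 10.9% of KO H3K27ac consensus regions, counted over regions of the mark. Counted over adult IRF8 regions, it lay at 8, of which 7 were members. Only regions without a WT H3K27ac peak can qualify, and members lacked one more often. A WT H3K27ac peak of any library overlapped 87.3% of members and 94.3% of matched others. The members' share of all adult regions (26.5%) is therefore not the base for this count. The 7 members were assigned to Arfgef2, Elf2, Sh3bp2, Mad1l1, Tax1bp1, Irf2bp2 and Dennd4a, named here after their values were seen. At Elf2 the KO folds were 5.01 and 4.16 and at Mad1l1 3.02 and 6.03, with no WT peak, and 4 of the 7 lay in the macrophage IRF8 consensus (20.3% of all members).

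The members of highest pileup percentile, in introns of Cdk8 (99.7) and Gphn (99.6), had peaks in adult replicates 1 and 3 only, pileups of 83 and 39 and of 87 and 35, and folds of 3.41 and 1.99 and of 4.01 and 2.01. No PU.1, H3K27ac or macrophage library listed either.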
